A study of Mus musculus with 6 samples.

Results

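The laminin chains are the 9 genes *Lama2*, *Lama3*, *Lama4*, *Lama5*, *Lamb1*, *Lamb2*, *Lamb3*, *Lamc1* and *Lamc3*. They were chosen by gene symbol from the 16180 genes of the deposited normalized table and joined to the raw counts by Ensembl identifier, a rule that uses symbols and no measured value but was set with earlier results of these data known. *Lama1*, a laminin chain gene outside this choice, is given for comparison. RNA-seq was performed on the soleus, a slow-twitch-rich calf muscle, of 3 heterozygous Mustn1 KO-first (HET) and 3 wild-type (WT) littermate mice at 8 weeks of age, all on the C57BL6/N strain and without other treatment. *Mustn1* encodes a small protein of the musculoskeletal system. The KO-first (tm1a) allele is built to splice exon 1 of *Mustn1* into a lacZ trapping cassette, is present in every cell of the body, and leaves HET mice with 1 intact copy. HET mice thus model reduced and not absent *Mustn1*, and such trapping can be incomplete. Each library came from 1 mouse.

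Laminins are large secreted proteins made of 1 alpha, 1 beta and 1 gamma chain joined in a cross shape, and they form the sheet of the basement membrane that touches the cell surface. In skeletal muscle, the alpha2 chain is the main alpha chain of the sheath around each fiber, where it binds dystroglycan and integrin alpha7, and loss of *LAMA2* causes a congenital muscular dystrophy. The alpha4 and alpha5 chains are known from blood vessels and from the neuromuscular junction, and the beta2 chain from the junction as well.

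Libraries held 26790075 to 50368796 reads on genes. *Mustn1* was measured at 12.6 to 16.8 CPM (reads scaled to library size, with TMM factors) in HET and 23.1 to 30.5 CPM in WT mice, with a log2 fold change of −0.96 (SE 0.15, adjusted p = 0.0452, edgeR), and every HET mouse lay below every WT mouse, the direction that the labels give. The soleus label was met by high *Myh7* and *Myh2*, the myosins of slow and fast oxidative fibers. The labels call the mice male, whereas each library held 3858 to 9154 reads of *Xist* and 0 to 12 reads in all of the Y-linked genes counted. The p-values describe the spread between these 6 mice.

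Promoter windows from RefSeq (build GRCm38.p6) were available for 5 of the 9 chains, namely *Lama2*, *Lama5*, *Lamb1*, *Lamb2* and *Lamb3*. *Lama2* and *Lamb2* are shown because they were the chains whose genotypes did not overlap, and *Lama5* because it was the most GC-rich chain and did not follow them. The sequences are written 5′ to 3′ on the strand of the gene, for *Lama2* and *Lama5* over the 250 bases before the RefSeq start and for *Lamb2* over the first 124 of these, which lie before any annotated exon. Capitals mark the E-box letters CANNTG, which myogenic factors are known to bind, and the GC box letters GGGCGG on either strand. The *Lama2* window is at chr10:27616943-27617192 on the minus strand, the *Lamb2* stretch at chr9:108479612-108479735 on the plus strand, and the *Lama5* window at chr2:180225860-180226109 on the minus strand.
Lama2: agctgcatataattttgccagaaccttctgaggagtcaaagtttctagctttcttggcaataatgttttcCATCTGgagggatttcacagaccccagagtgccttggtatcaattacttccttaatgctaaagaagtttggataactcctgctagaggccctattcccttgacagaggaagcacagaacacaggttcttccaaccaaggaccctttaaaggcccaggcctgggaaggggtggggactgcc
Lamb2: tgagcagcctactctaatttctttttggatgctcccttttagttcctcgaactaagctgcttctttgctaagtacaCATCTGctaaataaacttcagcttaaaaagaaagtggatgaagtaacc
Lama5: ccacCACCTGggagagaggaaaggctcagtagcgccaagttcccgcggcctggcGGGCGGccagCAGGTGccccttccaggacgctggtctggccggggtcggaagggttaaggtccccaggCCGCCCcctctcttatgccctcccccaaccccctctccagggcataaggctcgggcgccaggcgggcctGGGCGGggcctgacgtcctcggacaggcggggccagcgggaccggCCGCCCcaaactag

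The whole 250-base windows differed in base composition. That of *Lama2* had 47.2% GC and 0 CpG, that of *Lamb2* 43.6% GC and 3 CpG, and that of *Lama5* 72.4% GC and 19 CpG, where the median of all 32841 windows was 52.4% GC and 6 CpG. *Lama2* and *Lamb2* each held 1 E-box and 0 GC boxes, and *Lama5* held 2 E-boxes and 4 GC boxes. The windows not shown did not follow the fold changes, since *Lamb1*, which was higher in HET mice, had 62% GC with 2 E-boxes and 2 GC boxes, and both windows of *Lamb3* had 0 GC boxes at 58.8 and 61.2% GC. An E-box was found in 66.2% and a GC box in 32.7% of all windows. The RefSeq start of *Lama2* lies 2816 bases inside the outermost start that the counts used, and that of *Lamb2* 126 bases inside it. The reads give no start site, so which promoter was in use was not tested.

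In the soleus, the laminin mRNA pool was made up mainly of *Lamb2* and *Lamc1*. To compare genes, CPM were divided by the exon length of the gene in kb. By this level *Lamb2* was highest at 33.6 CPM per kb over the 6 mice, followed by *Lamc1* at 20.3 and *Lama2* at 6.23. *Lamb1* followed at 5.21, *Lama4* at 3.51, *Lama5* at 2.22 and *Lamb3* at 1.51, and *Lama3* at 0.322 and *Lamc3* at 0.0969 CPM per kb were the lowest. Within every mouse each chain was above the next in this order, although the ranges over mice of *Lama2* and *Lamb1*, of *Lamb1* and *Lama4*, and of *Lama5* and *Lamb3* overlapped. Another setting, chosen after seeing the data, used the length of the longest annotated transcript. There, *Lama2* moved to 10.6, *Lamb1* to 8.93 and *Lama4* to 7.0 CPM per kb, and their order was kept within every mouse. *Lama5* and *Lamb3* changed places between mice.

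**Figure D1:**
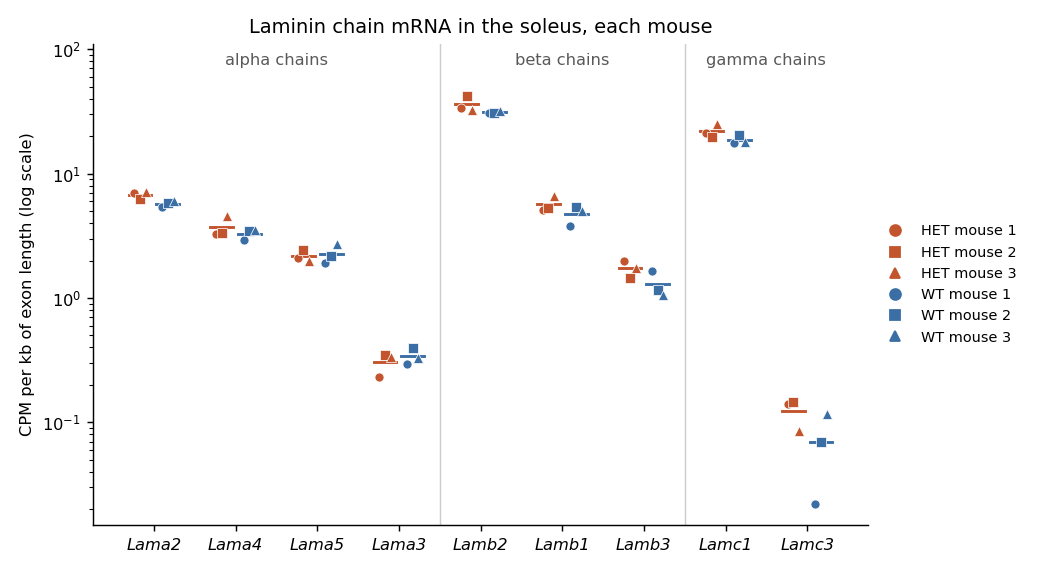
Level of each laminin chain in every mouse, in CPM per kb of exon length on a log axis, grouped by alpha, beta and gamma chains. Symbols are single mice (HET orange, WT blue) and bars are group means of 3 mice; *Lamb2*, *Lamc1* and *Lama2* are the highest and *Lamc3* the lowest.

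Within the alpha class, *Lama2* held on average 50.7% of the summed level, *Lama4* 28.5%, *Lama5* 18.2% and *Lama3* 2.64%. The share of *Lama2* was 55.4, 50.4 and 50.7% in HET mice 1 to 3 and 51.1, 49.1 and 47.8% in WT mice 1 to 3. The 2 genotypes overlapped, with WT mouse 1 above HET mice 2 and 3. *Lamb2* held 83.3% of the beta class, between 79.5 and 86.2% in single mice, with *Lamb1* at 13.0% and *Lamb3* at 3.75%. *Lamc1* held between 95.1 and 95.6% of the gamma class in each of the 6 mice. In all 6 mice, *Lama2*, *Lamb2* and *Lamc1* were the leading chains of their classes. The alpha shares depended on the length used. Per kb of the longest transcript, the mean shares were 52.6% for *Lama2*, 34.6% for *Lama4* and 11.1% for *Lama5*.

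**Figure D2:**
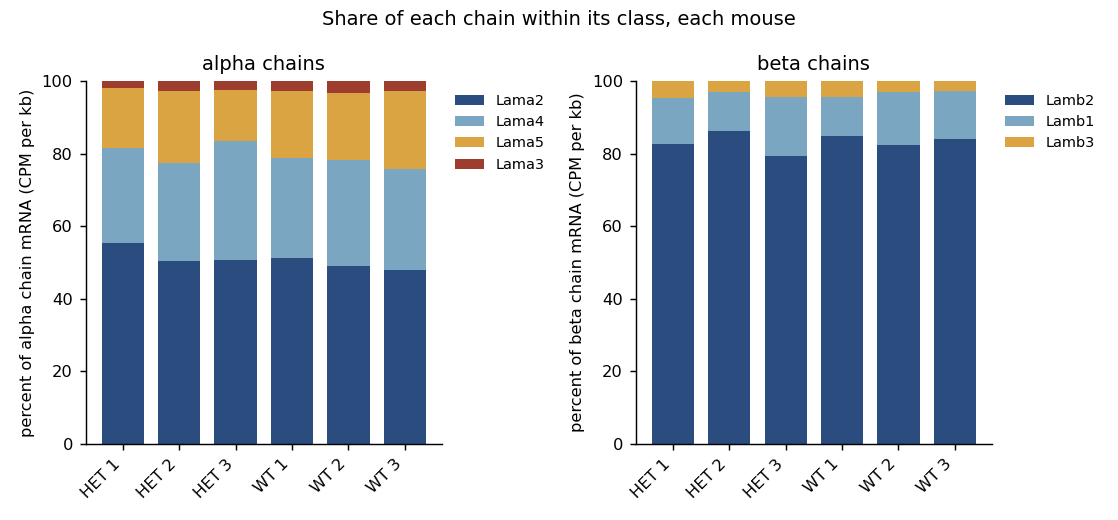
Percent of the alpha chain level (left) and of the beta chain level (right) taken by each chain in each mouse, from CPM per kb. *Lama2* holds between 47.8 and 55.4% of the alpha chains and *Lamb2* between 79.5 and 86.2% of the beta chains.

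HET soleus was compared with WT to ask whether reduced *Mustn1* went with a change in laminin mRNA. *Lama2*, *Lamb2*, *Lamc1*, *Lama4*, *Lamb1*, *Lamb3* and *Lamc3* had higher mean values in HET mice, by 1.13 to 1.68-fold, and *Lama3* and *Lama5* had lower ones, but no chain passed the test. By the quasi-likelihood test of edgeR, adjusted over all genes by Benjamini-Hochberg, 0 of the 9 chains had an adjusted p below 0.05, against 21 of 14696 genes called higher (0.143%) and 1 called lower (0.0068%). DESeq2 also called 0 chains. At an unadjusted p below 0.05 there were 2 chains, *Lama2* and *Lamb3*, both higher (background 5.76%). Log2 fold changes were above 0 for 7 of the 9 chains, against 45.6% of all genes, and the median was 0.24 for the chains and −0.02 for all genes. Without HET mouse 3 the median of the chains was 0.14. In 2 chains, *Lama2* and *Lamb2*, every HET mouse lay above every WT mouse, where 7.55% of all genes did so. In bulk tissue, a change in the number of cells of a type and a change in RNA per cell cannot be told apart.

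**Figure D3:**
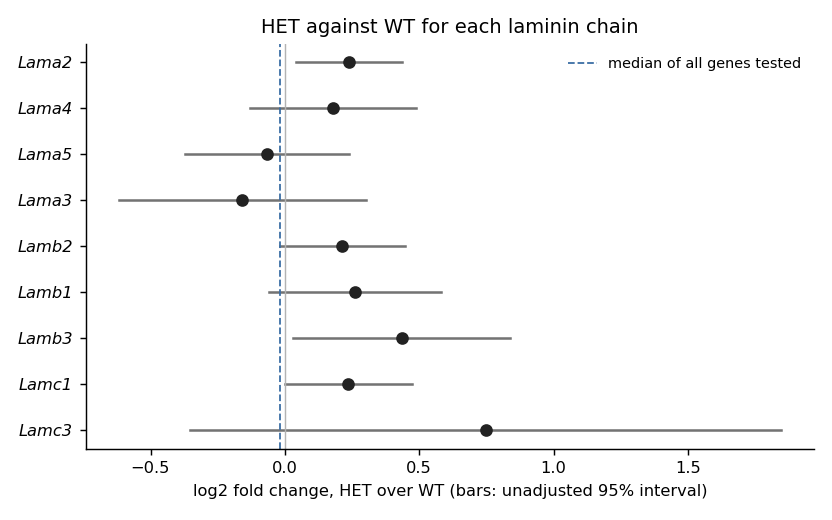
Log2 fold change of HET over WT for each chain, with the unadjusted 95% interval from edgeR as a bar and the median of all genes as a dashed line. The point estimates of 7 of the 9 chains lie above 0, and the intervals of *Lama2* and *Lamb3* do not reach 0.

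*Lama2* (ENSMUSG00000019899, chr10:26980036-27619758, minus strand) encodes the alpha2 chain of the muscle fiber sheath. It was measured at 113.5, 101.2 and 115.9 CPM in HET mice 1 to 3 and at 87.7, 95.1 and 97.7 CPM in WT mice 1 to 3. All HET mice were above all WT mice, and HET mouse 2 came closest to the WT range. The means were 110.2 ± 7.86 CPM (SD, n = 3) in HET and 93.5 ± 5.21 CPM (SD, n = 3) in WT. On the log2 scale this was a change of 0.24 (SE 0.09, 95% interval 0.04 to 0.43, adjusted p = 0.482, edgeR), a 1.18-fold difference that did not pass the threshold. With 2621 or more reads in each library, counting alone would give a spread of at most 1.95%, below the 7.13% between HET and the 5.57% between WT mice.

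*Lama4* (ENSMUSG00000019846, chr10:38965515-39110188, plus strand), an alpha chain of vessel walls, was measured at 39.5, 40.1 and 55.2 CPM in HET mice and at 35.3, 41.7 and 42.2 CPM in WT mice. HET mouse 3 stood above the other five, which lay between 35.3 and 42.2 CPM. Its log2 fold change was 0.18 (SE 0.14, adjusted p = 0.864, edgeR), and this was 0.00 without HET mouse 3 and 0.10 without WT mouse 1. *Lama5* (ENSMUSG00000015647, chr2:180176373-180225859, minus strand), the broadly expressed alpha5 chain, had 23.8, 27.8 and 22.7 CPM in HET mice against 21.8, 24.9 and 30.8 CPM in WT mice. Its highest value was in WT mouse 3 and its lowest in WT mouse 1, so that the WT mice spanned the HET mice. A log2 fold change of −0.07 (SE 0.14, adjusted p = 0.962, edgeR) resulted, which turned to 0.08 without WT mouse 3 and to 0.01 when libraries were scaled by their size only.

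*Lama3* (ENSMUSG00000024421, chromosome 18), an alpha chain of epithelia, was low, with 94 to 175 reads in a library. It was measured at 2.51, 3.73 and 3.58 CPM in HET mice and at 3.18, 4.22 and 3.55 CPM in WT mice. The lowest value was that of HET mouse 1 and the highest that of WT mouse 2, and the groups overlapped. The log2 fold change of −0.16 (SE 0.21, adjusted p = 0.930, edgeR) was 0.00 without HET mouse 1. *Lama1*, the alpha chain of early embryos, had 0, 0 and 1 reads in HET and 2, 0 and 0 reads in WT libraries and was not tested. At this depth its mRNA was not detectable beyond 2 reads in a library.

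*Lamb2* (ENSMUSG00000052911, chr9:108479736-108490530, plus strand) encodes the beta2 chain and was the most abundant chain. It was measured at 206.4, 255.7 and 196.5 CPM in HET mice and at 186.2, 187.9 and 193.8 CPM in WT mice. The WT mice lay close together, HET mouse 3 was just above them and HET mouse 2 far above. The means were 220 ± 31.7 CPM (SD, n = 3) in HET and 189 ± 3.99 CPM (SD, n = 3) in WT. The log2 fold change was 0.21 (SE 0.10, 95% interval −0.02 to 0.45, adjusted p = 0.70, edgeR), and without HET mouse 2 it was 0.10.

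*Lamb1* (ENSMUSG00000002900, chr12:31265234-31329644, plus strand), the beta chain of embryonic and many adult basement membranes, was measured at 50.9, 52.5 and 65.4 CPM in HET and at 37.7, 53.8 and 49.5 CPM in WT mice. HET mouse 3 was highest and WT mouse 1 lowest, and the other four mice lay between 49.5 and 53.8 CPM. *Lamb1* had a log2 fold change of 0.26 (SE 0.14, adjusted p = 0.779, edgeR), which was 0.14 without HET mouse 3 and 0.12 without WT mouse 1. *Lamb3* (ENSMUSG00000026639, chr1:193207699-193343878, plus strand), the beta chain of epithelial laminin, was measured at 13.0, 9.61 and 11.6 CPM in HET mice and at 10.8, 7.63 and 7.05 CPM in WT mice. WT mouse 1 was above HET mouse 2, so the groups overlapped. For *Lamb3* the log2 fold change was 0.43 (SE 0.18, 95% interval 0.03 to 0.84, adjusted p = 0.596, edgeR).

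*Lama3*, the alpha chain of the same epithelial laminin, had the opposite sign to *Lamb3*, and neither passed the threshold. The epithelial markers *Epcam*, *Krt5*, *Krt14* and *Cdh1* were near 0, with a summed level of 0.261 to 0.427 CPM in HET and 0.334 to 0.608 CPM in WT mice. The gene body of *Lamb3* contains other genes in the count table. *Gm37691* on the same strand had 223 to 511 reads in a library, and reads falling on exons of both genes were counted for neither. *G0s2*, on the opposite strand, had 843 to 2136 reads, but the counting used strand. These neighbors had log2 fold changes of −0.12 (*Gm37691*) and 0.06 (*G0s2*), against 0.43 for *Lamb3*.

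*Lamc1* (ENSMUSG00000026478, chr1:153218922-153332786, minus strand) encodes gamma1, the gamma chain shared by most laminins. It was measured at 174, 164 and 205 CPM in HET mice and at 144, 170 and 147 CPM in WT mice. WT mouse 2 was above HET mouse 2, and otherwise HET mice were higher. Between genotypes the log2 fold change was 0.24 (SE 0.11, adjusted p = 0.649, edgeR), and without HET mouse 3 it was 0.14. *Lamc3* (ENSMUSG00000026840, chr2:31887291-31946539, plus strand), the gamma3 chain, had 32, 24 and 23 reads in HET libraries and 4, 12 and 35 reads in WT libraries. After normalization these were 0.855, 0.894 and 0.524 CPM in HET and 0.134, 0.426 and 0.709 CPM in WT mice, so WT mouse 3 was above HET mouse 3. Its log2 fold change of 0.75 was the largest of the 9 and the least precise (SE 0.50, adjusted p = 0.833, edgeR), and was 0.36 without WT mouse 1 and 1.42 without WT mouse 3. Counting error alone allows 1.09 to 10.2 reads for the 4 reads of WT mouse 1 (exact 95% Poisson interval).

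Summed over all laminin chains of the count table, the laminin level was 75.7, 81.9 and 80.6 CPM per kb in HET mice 1 to 3 and 64.8, 70.9 and 69.2 CPM per kb in WT mice 1 to 3. All HET mice were above all WT mice. The means were 79.4 ± 3.29 (SD, n = 3) and 68.3 ± 3.15 CPM per kb (SD, n = 3), a 1.16-fold difference. The two-sided exact permutation p was 0.1, the lowest value that groups of 3 and 3 allow, and 0.6 after adjustment over the 20 sums, shares and ratios compared. The beta chain sum did not overlap either, at 43.5 ± 4.59 in HET and 37.2 ± 0.978 CPM per kb in WT mice (SD, n = 3, exact permutation p = 0.1, adjusted 0.6). The alpha sum of 12.9 against 11.6 and the gamma sum of 23.0 against 19.5 CPM per kb overlapped between genotypes (exact permutation p = 0.2 for each). *Lamb2* is the largest part of both sums that did not overlap. It alone was at 33.9, 42.0 and 32.3 CPM per kb in HET and 30.6, 30.9 and 31.9 CPM per kb in WT mice. The sum of the other chains was not compared, nor were sums after removal of the GC trend given below.

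The shares of the 9 chains within their classes overlapped between genotypes. That of *Lama2* in the alpha class differed by 2.82 percentage points between HET and WT means (exact permutation p = 0.3) and that of *Lama5* by −2.52 (exact permutation p = 0.3). The share of *Lamb2* in the beta class differed by −1.02 points (exact permutation p = 0.7). The log2 ratio of the alpha to the gamma sum was −0.82 in HET and −0.75 in WT, and that of the beta to the gamma sum was 0.92 and 0.93. No difference in the shares of these 9 chains was detectable with 3 mice in each group.

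The chains did not all follow the same mice. The highest HET mouse was mouse 3 for *Lama2*, *Lama4*, *Lamb1* and *Lamc1*, whereas it was mouse 2 for *Lamb2*, *Lama5*, *Lama3* and *Lamc3* and mouse 1 for *Lamb3*. The transcripts of the first group had between 47.7 and 53.0% GC, and those of *Lamc3*, *Lamb2* and *Lama5* 58.4, 58.8 and 59.9% GC. *Lama3*, also highest in HET mouse 2, had 51.7% GC and so did not follow this split, and *Lamb3* had 55.6% GC. In HET mouse 2, all genes of 58 to 62% GC together (1114 genes) were raised by 0.24 on the log2 scale, against −0.09 to 0.07 in the other libraries. When each library's trend on GC content was removed, the log2 fold change of *Lamb2* was 0.13 (adjusted p = 0.578, edgeR) against 0.21 as counted, and that of *Lama2* was 0.26 (adjusted p = 0.269, edgeR). For these 2 chains HET and WT mice still did not overlap after this step. The lowest WT value was that of mouse 1 in 8 of the 9 chains and that of mouse 3 for *Lamb3*.

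**Figure D4:**
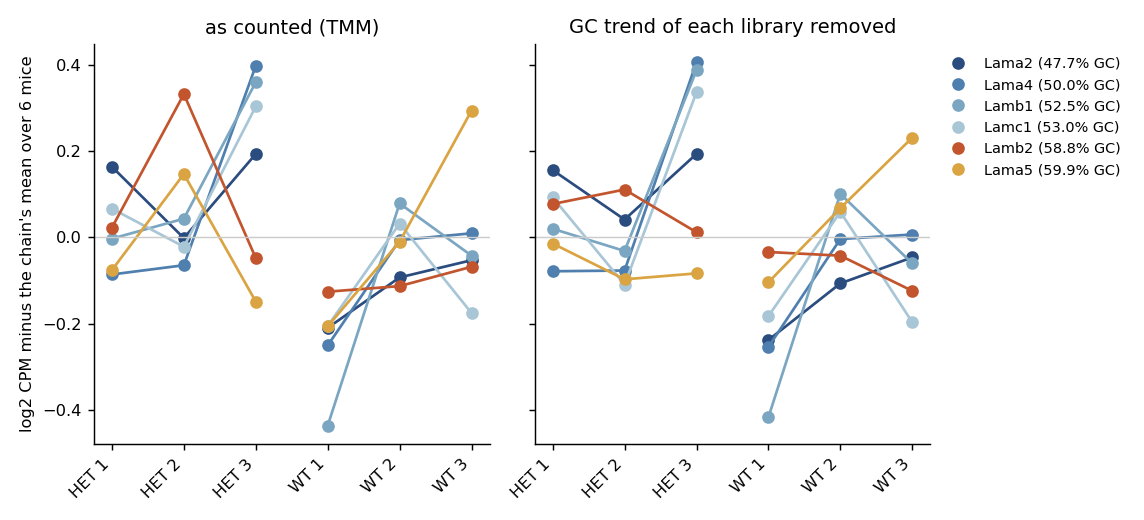
Log2 CPM of 6 laminin chains in each mouse minus the chain's mean over the 6 mice, as counted (left) and after each library's GC trend was removed (right); lines only join the points of a chain. HET mouse 2 stands above the other HET mice for *Lamb2* and *Lama5* on the left and lies close to them on the right, and HET mouse 3 is high for *Lama4*, *Lamb1* and *Lamc1* in both.

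Likeness between genes was described by the root mean square difference of centred log2 CPM over the 6 mice, where 0 means the same profile. *Lama2* was closest to *Lamc1* among the chains (0.093), and *Lama4* to *Lamb1* (0.10), whereas *Lama5* was closest to *Lamb2* at a larger distance (0.18). Among all genes tested, the nearest to *Lama2* were *Lmo2* (0.029), *St6gal1* (0.029) and *C78197* (0.045). The nearest to *Lama4* were *Mcam* (0.048), a laminin receptor of vessel walls, *Gja1* (0.054) and *Dapp1* (0.064). The nearest to *Lama5* were *Lzts2* (0.038), *Ercc1* (0.044) and *Ap5s1* (0.047). All of these share the 6 libraries, and genes of like GC content share the library trends given above.

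The genes that bind, modify or join laminins were examined as lists. Of 10 laminin receptor genes, 6 had a log2 fold change above 0 (45.6% of all genes did) and 0 passed the threshold in edgeR (background 0.143% higher). There was 1 at an unadjusted p below 0.05 (background 5.76%), and the median was 0.03. *Dag1*, the core of dystroglycan, was measured at 456, 483 and 442 CPM in HET and at 460, 454 and 432 CPM in WT mice, and *Itga7*, the main laminin-binding integrin of muscle fibers, at 178, 187 and 166 against 176, 166 and 180 CPM. Both receptors of the muscle fiber surface overlapped between genotypes, with log2 fold changes of 0.04 (95% interval −0.15 to 0.22) and 0.02 (95% interval −0.16 to 0.21). At the ends of the list, *Itga6* had a log2 fold change of −0.16 (adjusted p = 0.842, edgeR) and *Itga2* of 1.22 (adjusted p = 0.385, edgeR). *Itga2*, a collagen and laminin receptor subunit, was rare, with 28, 19 and 31 reads in HET and 5, 13 and 15 in WT libraries, and its groups did not overlap in CPM (background 7.55%).

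The enzymes that build the laminin-binding sugar of dystroglycan were balanced, with 6 of 12 above 0 (45.6% of all genes were) and a median log2 fold change of −0.00. Of them 0 passed the threshold in edgeR (background 0.143% higher) and 0 had an unadjusted p below 0.05 (background 5.76% higher). The highest was *Pomt1*, which starts the sugar chain, at 0.20 (SE 0.13, adjusted p = 0.833, edgeR). It was measured at 12.1, 14.6 and 11.5 CPM in HET and at 10.4, 10.5 and 12.2 CPM in WT mice, and the groups overlapped.

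The other basement membrane genes lay on the same side as most laminin chains. All 11 genes tested of this list, which holds nidogens, collagen IV chains, perlecan, agrin and collagens XV and XVIII, had log2 fold changes above 0 (45.6% of all genes did), with a median of 0.25. In edgeR 0 passed the threshold (background 0.143% higher), 2 had an unadjusted p below 0.05 (background 5.76%) and 2 did not overlap between genotypes (background 7.55%). *Col4a6* was too low to be tested. *Nid1*, which links laminin to collagen IV, was measured at 117, 103 and 149 CPM in HET and at 83.5, 100.8 and 97.6 CPM in WT mice. The groups of *Nid1* did not overlap, although HET mouse 2 was near WT mouse 2, and the log2 fold change was 0.39 (SE 0.13, adjusted p = 0.421, edgeR). *Col18a1*, the collagen that holds endostatin, was measured at 22.2, 25.6 and 30.9 CPM in HET and at 12.2, 17.6 and 18.1 CPM in WT mice. Its groups did not overlap, and its log2 fold change of 0.71 (SE 0.17, adjusted p = 0.174, edgeR) was the highest of the list, while *Agrn*, which clusters acetylcholine receptors, was lowest at 0.04. DESeq2, which called 1.48% of all genes higher, called *Col18a1*, as did the edgeR fit without a filter on low counts (1.33% of 29081 genes called higher), which also called *Nid1*.

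Netrins share domains with laminins, and *Ntn4* can bind gamma chains. Of 5 netrin genes, 3 were above 0 (45.6% of all genes were) and 0 passed the threshold in edgeR (background 0.143% higher). There was 1 at an unadjusted p below 0.05 (background 5.76%). *Ntn1* was measured at 11.9, 17.2 and 18.3 CPM in HET and at 7.29, 8.8 and 12 CPM in WT mice. WT mouse 3 was just above HET mouse 1, and the log2 fold change was 0.75 (SE 0.21, adjusted p = 0.276, edgeR). DESeq2, which called 1.48% of all genes higher, called *Ntn1*. *Ntn5* was at −0.25 (adjusted p = 0.849, edgeR), with every HET mouse below every WT mouse (background 6.02%), and *Ntn4* at −0.03. *Ntn3* was not analysed here.

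**Figure D5:**
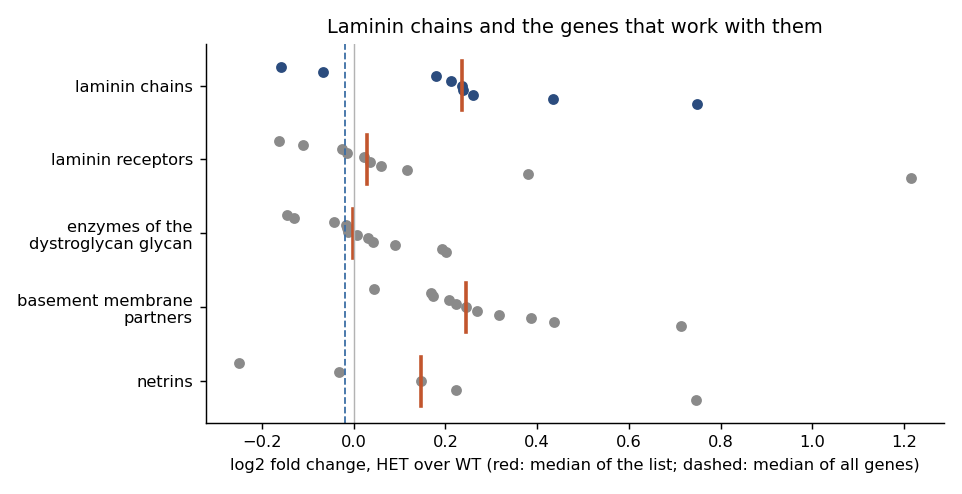
Log2 fold change of HET over WT for each tested gene of 5 lists (points), with the median of the list in red and that of all genes dashed. Laminin chains (median 0.24) and basement membrane partners (0.25) lie mostly above 0, and receptors (0.03) and enzymes of the dystroglycan glycan (−0.00) around 0.

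Summed markers of 5 other cell types, like the summed laminin level, did not overlap between genotypes. Fibro-adipogenic progenitors are connective tissue cells that secrete matrix. Their 6 markers summed to 833 to 1224 CPM in HET and 405 to 663 CPM in WT mice. Log2 fold changes were above 0 for 6 of 6 (45.6% of all genes), and 1, *Pi16*, was called higher (background 0.143%). In 4 of 6 the groups did not overlap (background 7.55%), whereas *Pdgfra* and *Lum* overlapped. *Col1a1* and *Dcn* held most of each sum. The 5 tenocyte markers summed to 319 to 552 against 100.5 to 257 CPM, with 5 of 5 above 0 (45.6% of all genes) and 0 called. In 4 of 5 the groups did not overlap (background 7.55%), whereas *Scx*, at a log2 fold change of 0.15, overlapped. *Fmod* and *Thbs4* held most of each sum. The 6 macrophage markers summed to 48.3 to 70.3 against 32.2 to 35.5 CPM. Here 6 of 6 were above 0 (45.6% of all genes), 5 did not overlap (background 7.55%) and 4 were called higher (background 0.143%). The 5 pericyte markers summed to 922 to 1100 CPM in HET and 1115 to 1227 CPM in WT mice. Of them 2 of 5 were above 0 (45.6% of all genes) and 0 were called. Of these, *Rgs5* alone did not overlap (background 6.02%), and it held most of the sum. *Rgs5* was measured at 574, 494 and 642 CPM in HET and 719, 760 and 666 CPM in WT mice. The 3 satellite cell markers summed to 19.5 to 20.8 against 21.4 to 26.3 CPM, with 0 of 3 above 0 (45.6% of all genes) and 0 called. In 2 of 3, every HET mouse lay below every WT mouse (background 6.02%). No defining marker was at 0 in every library, and their part in the laminin values was not tested.

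The sums of endothelial, smooth muscle, Schwann cell and adipocyte markers overlapped between genotypes. Endothelial markers summed to 503 to 616 CPM in HET and 525 to 670 CPM in WT mice, smooth muscle markers to 246 to 304 against 231 to 277 CPM, and Schwann cell markers to 108 to 124 against 88.8 to 130 CPM. Of the 6 Schwann cell markers, 4 had log2 fold changes above 0 (45.6% of all genes) and 0 were called. In 2 of these 6, every HET mouse lay above every WT mouse (background 7.55%). Adipocyte markers summed to 23.2 to 66.9 against 6.62 to 42.0 CPM. All 4 of them had log2 fold changes above 0, with a median of 1.07, but 0 were called and 0 were without overlap. The sums of slow and of fast fiber markers overlapped as well, although 2 of 5 fast fiber markers, *Tnnt3* and *Tnni2*, had every HET mouse below every WT mouse (background 6.02%), with 0 called.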

How the data were processed

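Poly-A RNA of the soleus of 6 mice was sequenced by the authors with 1 stranded, single-end library per mouse. The authors aligned reads with STAR 2.7.3a to GRCm38.p6 and deposited raw counts per gene made with featureCounts 2.0.3 in reverse-stranded mode, without normalization. A normalized signal was deposited too, which is the raw count over 1 DESeq2 size factor per library, between 0.773 and 1.42. The other deposited table holds the authors' own comparison (fold changes and p-values) and was not used. Columns without a sample numbered 0. The DESeq2 version the authors used is not given in the sources used here.

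All values come from the raw counts. Genes were named from GENCODE M21 of the same build, which left 193 of 51912 without a name. CPM use TMM factors. edgeR 4.0.16 (R 4.3.3; filterByExpr, minimum count 10, robust quasi-likelihood fit, genotype only) tested 14696 genes, with two-sided p-values adjusted by Benjamini-Hochberg at 0.05. The SE is the fold change over the square root of F. Groups of 3 against 3 cannot reach a permutation p below 0.1. Levels per kb use the exon length in the count table. Promoters are RefSeq windows. Between mice of 1 genotype, the chi-square per gene was 16.1 to 46.8, where repeated counting gives 1, so no library was counted as a copy of another. Intervals on reads cover counting error only. limma 3.58.1 (voom) and DESeq2 1.42.0 served as alternatives, beside other scaling and filters, length and GC trends, the replicate number as a block and each mouse left out.

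Named were all 9 chains, *Lama1*, *Mustn1*, in each partner list the ends of the range, genes past the threshold and genes without overlap, and the 3 nearest genes by profile of *Lama2*, *Lama4* and *Lama5*. *Dag1*, *Itga7*, *Ntn4*, *Pi16*, *Rgs5*, *Tnnt3*, *Tnni2* and the neighbors of *Lamb3* were added after their values were seen. So were *Col1a1*, *Dcn*, *Pdgfra*, *Lum*, *Fmod*, *Thbs4* and *Scx*. Some items that this rule names are not reported here. The chains and lists were chosen with earlier results of these data known.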

Additional observations from a re-analysis of the deposited data

How the results depend on the processing

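The number of chains called was 0 in the 19 alternatives to the edgeR fit, including each mouse left out (0 to 0), and the median log2 fold change of the chains stayed above 0, between 0.14 and 0.31 with a mouse left out. *Lama2*, *Lama4*, *Lamb1*, *Lamb2*, *Lamb3*, *Lamc1* and *Lamc3* kept their direction in every alternative that gave a value, while *Lamc3* was not tested where 10 counts were required in each library. *Lama5* reversed to 0.0075 with library size only and to 0.082 without WT mouse 3 (range with a mouse left out −0.18 to 0.082), and *Lama3* to 0.0016 without HET mouse 1 (range −0.25 to 0.0016). The cause was not tested.

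Over all genes, the 21 higher and 1 lower became 386 and 18 with no filter on low counts, 218 and 8 with DESeq2, 3 and 0 with limma-voom, 6 and 0 with a non-robust fit, 6 higher with the GC trend removed, and 0 to 77 higher and 0 to 6 lower with a mouse left out, the most without WT mouse 3 and 0 without HET mouse 1, HET mouse 3, WT mouse 1 or WT mouse 2. Deviations of mice of the same number had correlations of 0.20, −0.01 and −0.03. The 0.20 of HET mouse 1 and WT mouse 1 was the highest of any HET and WT pair. Whether the numbers pair the mice cannot be told from these correlations. With the replicate block the counts were 114 and 2, with length 140 and 2, with GC 94 and 2. The block left 0 chains called and 0 receptors or glycan enzymes. Basement membrane partners called were 2 with no filter and 1 with DESeq2, the block, and length with the block. Netrins called were 1 in these 4 settings and 1 with GC and the block. With a mouse left out, 0 to 0 genes of either list were called.

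The share of *Lama4* among alpha chains, HET minus WT, turned from 0.28 to −0.0022 percentage points without length correction and to −0.17 per kb of the longest transcript, and ranged from −1.77 to 1.53 with a mouse left out. That of *Lamb1* ranged from −1.05 to 1.63, with −0.63 without WT mouse 1, and that of *Lamb2* from −2.71 to 0.63. That of *Lama2* ranged from 1.20 to 3.71 and that of *Lama5* from −3.98 to −1.17. Depth limits *Lamc3* and *Lama1*, at 35 reads or fewer in a library.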
